A study of Mus musculus with 6 samples.

Results

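The genes described here are 32 genes of cholesterol synthesis, of its regulator SREBP2 and of sterol handling, out of 34745 genes counted in mouse hepatocytes. They were chosen by name and not by a rule on their values, but with earlier results of these data known. They are genes of the steps of the pathway, of the control and targets of SREBP2, and of sterol transport and storage. Each of the 32 symbols matched 1 gene, and all 32 passed the filter on low counts that left 14417 genes for testing. By role they comprise 20 enzymes on the way to cholesterol, 1 enzyme of an isoprenoid branch, 4 genes of SREBP2 and its activation, 2 genes that retain SREBP2, and 5 genes of sterol transport and storage.

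Cells build cholesterol from acetyl-CoA through mevalonate, farnesyl diphosphate, squalene and lanosterol, and the liver is a main site of this synthesis. SREBP2 is a transcription factor made as a precursor in the membrane of the endoplasmic reticulum, where it is bound to its escort SCAP. When sterols are scarce, the complex moves to the Golgi, the site-1 and site-2 proteases release the active fragment, and this fragment turns on genes of synthesis, and when sterols are abundant, INSIG proteins hold the complex back.

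Primary hepatocytes of 12-week-old male mice were compared between FOXA2H-KO+CCl4 and FOXA2f/f+CCl4, with 3 libraries per group, numbered 1, 2 and 4 in both. All mice carried Foxa2 alleles flanked by loxP sites (FOXA2flox/flox), and received by tail vein either AAV8-TBG-Cre, which gave the FOXA2H-KO mice, or AAV8-TBG-Control, which gave the FOXA2f/f mice, 2 weeks before the toxin carbon tetrachloride (CCl4). The TBG promoter drives Cre in hepatocytes, so that other liver cells are not targeted. All mice then had CCl4 at 0.25 ml/kg, 2 injections per week for 4 weeks, and were killed 3 days after the last injection. Mice without CCl4 were not analysed here, so that each difference below is a difference under CCl4.

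Total counts ranged from 20983455 to 28327765 per library. Counts are given below as CPM, the count relative to the library total after TMM scaling, which corrects that total for differences in composition, and values of 3 libraries follow the order of replicates 1, 2 and 4. Foxa2 (ENSMUSG00000037025, chr2:148042877-148046969, minus strand, positions on GRCm38 throughout) was at 19.0, 13.5 and 16.4 CPM in FOXA2f/f+CCl4 and at 1.03, 0.762 and 1.62 CPM in FOXA2H-KO+CCl4. It fell to 6.98% of the control mean (log2 fold change −3.85, standard error or SE 0.31, edgeR adjusted p = 0.0313), and the groups did not overlap (exact two-sided permutation p = 0.1, the smallest that 3 libraries against 3 allow).

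SREBP2 binds sterol regulatory elements in promoters, usually beside binding sites of NF-Y and Sp1. Promoters of 26 of the 32 genes were found in the RefSeq table (GRCm38.p6, from 250 bases before to 50 bases after the start), and were searched on both strands for TCACNCCAC (sterol regulatory element), CCAAT (NF-Y) and GGGCGG (Sp1). The letters of the sterol regulatory element stood in 1 of the 26 promoters, that of Hmgcs1 (3.85%), against 1.52% of the promoters of the tested genes. CCAAT stood in 21 of 26 (80.8%), against 42.9% of tested genes, and GGGCGG in 22 of 26 (84.6%), against 65.6%. These matches describe letters in a window and not occupied sites. The promoters of 4 genes are shown as the 140 bases before the RefSeq start, with no annotated exon inside and with the searched motifs in capitals. Hmgcs1 is shown for its sterol regulatory element, and Mvk, Pmvk and Ebp because their values below did not overlap between the groups and their 140 bases hold a motif. Mbtps1, also without overlap and without an exon in its 140 bases, held none of the 3 motifs there and is not printed. They lie at chr13:119690211-119690350 on the plus strand (Hmgcs1), chr5:114444129-114444268 on the plus strand (Mvk), chr3:89454401-89454540 on the plus strand (Pmvk) and chrX:8193513-8193652 on the minus strand (Ebp), 5′ to 3′ on the strand of the gene.
Hmgcs1: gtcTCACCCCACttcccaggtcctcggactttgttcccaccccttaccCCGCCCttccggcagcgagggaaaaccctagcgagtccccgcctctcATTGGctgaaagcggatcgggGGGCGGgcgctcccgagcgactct
Mvk: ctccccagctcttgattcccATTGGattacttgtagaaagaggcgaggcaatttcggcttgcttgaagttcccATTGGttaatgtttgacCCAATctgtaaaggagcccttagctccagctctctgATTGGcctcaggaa
Pmvk: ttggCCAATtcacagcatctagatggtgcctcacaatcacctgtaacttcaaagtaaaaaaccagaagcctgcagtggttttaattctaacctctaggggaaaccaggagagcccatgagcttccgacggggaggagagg
Ebp: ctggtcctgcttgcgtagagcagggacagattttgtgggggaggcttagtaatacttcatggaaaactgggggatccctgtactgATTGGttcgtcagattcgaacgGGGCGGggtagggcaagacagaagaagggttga
In the Hmgcs1 window, TCACNCCAC stood 137 bases before the start, with CCGCCC, the reverse complement of the Sp1 motif, and ATTGG, that of CCAAT, between it and the start. The 140 printed bases of Mvk held CCAAT in either orientation and no GGGCGG, which stood further upstream in the searched window, and those of Pmvk held a single CCAAT.

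Cholesterol genes lay below the control in FOXA2H-KO+CCl4 along most of the pathway, and no single one of them passed edgeR's test over all genes. The fitted log2 fold change was below 0 for 29 of 32 genes (90.6%, against 52.2% of all tested genes), and above 0 for Ggps1, Insig2 and Npc2. Its median was −0.45 over the 32 genes and −0.58 over the 20 enzymes, against −0.012 over all tested genes. It was at or below −0.5 for 15 of the 32, against 6.26% of all tested genes. None of the 32 was called by edgeR's quasi-likelihood test at an adjusted p under 0.05 and a fold of at least 2, and their smallest adjusted p was 0.650. At that rule 0.00694% of all tested genes were called lower, which was Foxa2 alone, and 0% were called higher. At an unadjusted p under 0.05, 11 of the 32 genes (34.4%) were lower, against 3.18% of all tested genes, and 0 were higher, against 1.98%. DESeq2 called 1 of the 32, Aacs, against 0.309% of its tested genes called lower and 0.174% called higher.

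The libraries of the groups did not overlap, all FOXA2H-KO+CCl4 below all FOXA2f/f+CCl4, for 9 of 32 genes (28.1%), against 5.96% of all tested genes. They were Acat2, Aacs, Mvk, Pmvk, Lss, Tm7sf2, Ebp, Dhcr7 and Mbtps1. In the other direction it was 1 gene, Ggps1, against 4.54%. With counts scaled by the library total alone, 6 genes were separated downwards (18.8%, against 3.24% of tested genes), of which Aacs, Mvk, Pmvk, Lss and Tm7sf2 were among the 9. None was separated upwards, against 8.28% of tested genes, so that under this scaling more of all genes were separated upwards than downwards. The same scaling set the median of all genes at 0.10 in place of −0.012, with 25 of the 32 genes below 0. Under it 7 of the 32 were lower at an unadjusted p under 0.05, against 1.67% of all tested genes.

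**Figure D1:**
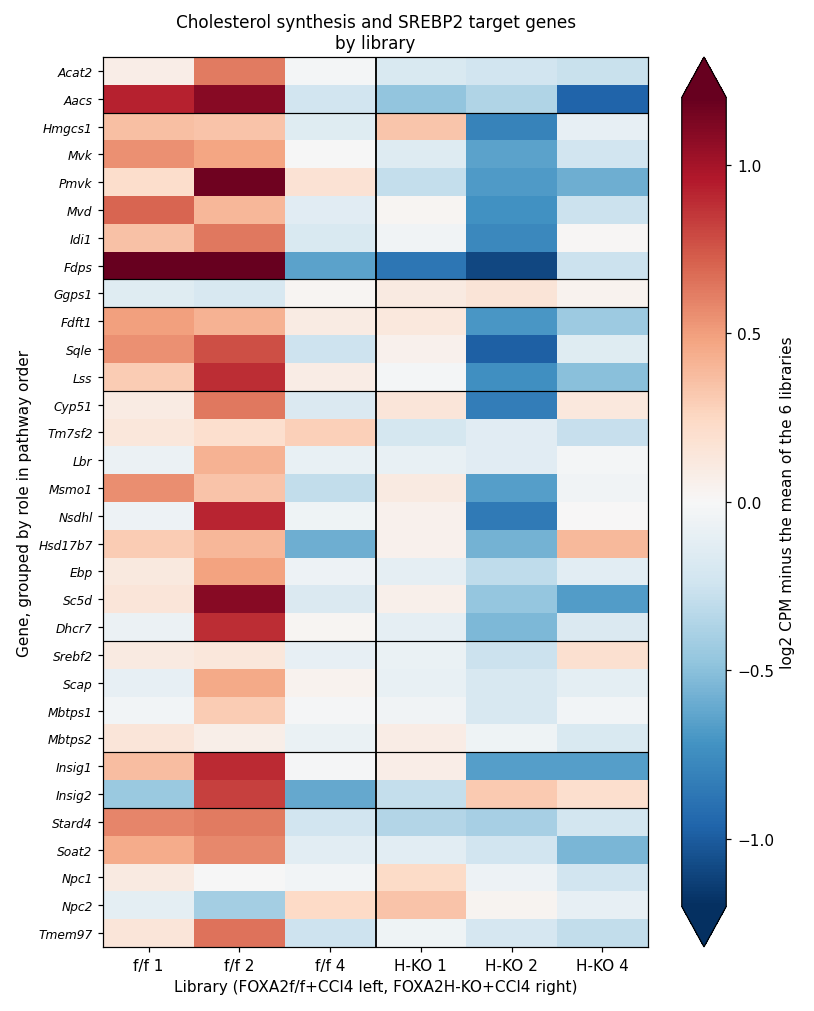
Heat map of the 32 genes (rows, in pathway order, with lines between roles) in the 6 libraries (columns). Colour gives log2 CPM minus the mean of the 6 libraries, and the scale is cut off at its ends. FOXA2f/f+CCl4 replicate 2 was the highest library for 20 genes and FOXA2H-KO+CCl4 replicate 2 the lowest for 19. Over all 14417 tested genes these counts were 4275 and 1377.

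Synthesis begins with acetoacetyl-CoA. Acat2, the cytosolic thiolase that joins acetyl-CoA units, was at 44.9, 65.4 and 41.8 CPM in FOXA2f/f+CCl4 and at 37.5, 36.2 and 35.2 in FOXA2H-KO+CCl4. Every FOXA2H-KO+CCl4 library lay below the lowest control, at a log2 difference of −0.48 (SE 0.18, edgeR adjusted p = 0.915). Of its 50-base stretches 39.1% also occur in other genes, Acat3 foremost, so that its count is uncertain. Aacs (ENSMUSG00000029482, chr5:125475814-125517410, plus strand), which makes acetoacetyl-CoA from the ketone body acetoacetate in the cytosol, was at 85.7, 96.7 and 38.6 CPM and at 32.5, 35.3 and 23.3 CPM. Its mean was 41.2% of the control (73.7 ± 30.8 against 30.3 ± 6.29 CPM, mean ± SD, n = 3 each), at a fitted log2 difference of −1.28 (SE 0.34, edgeR adjusted p = 0.650, DESeq2 adjusted p = 0.0437). The control libraries of Aacs spread widely, and replicate 4 lay close to the highest FOXA2H-KO+CCl4 library.

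Hmgcs1, which condenses acetoacetyl-CoA to HMG-CoA, was at 154, 152 and 108 CPM in FOXA2f/f+CCl4 and at 151, 69.0 and 112 in FOXA2H-KO+CCl4, and 11.6% of its 50-base stretches are shared with other genes. Its groups overlapped, with 1 FOXA2H-KO+CCl4 library near the top of the controls and 1 far below them (log2 fold change −0.32, SE 0.29, edgeR adjusted p = 0.983). The kinases that follow were separated. Mvk, mevalonate kinase, was at 15.5, 14.7 and 10.6 CPM in the controls and at 9.56, 6.82 and 9.06 CPM in FOXA2H-KO+CCl4, a mean of 62.3% of the control (log2 fold change −0.68, SE 0.22, edgeR adjusted p = 0.794). Pmvk (ENSMUSG00000027952, chr3:89454541-89469013, plus strand), which adds the second phosphate, was at 20.8, 40.2 and 20.3 CPM and at 14.7, 11.2 and 11.9 CPM. Its mean was 46.6% of the control (27.1 ± 11.4 against 12.6 ± 1.86 CPM), at a log2 difference of −1.10 (SE 0.29, edgeR adjusted p = 0.650). Control replicate 2 stood well above the other controls for Pmvk, but not for Mvk.

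Mvd, the decarboxylase that yields isopentenyl diphosphate, was at 8.68, 7.07 and 4.89 CPM in FOXA2f/f+CCl4 and at 5.44, 3.25 and 4.49 in FOXA2H-KO+CCl4 (log2 fold change −0.64, SE 0.29, edgeR adjusted p = 0.941). For Mvd the highest FOXA2H-KO+CCl4 library lay above control replicate 4. Idi1, which isomerizes isopentenyl diphosphate, had means of 104 ± 28.3 and 71.9 ± 19.8 CPM and a log2 fold change of −0.53 (SE 0.27). Its count is uncertain too, since 25.3% of its 50-base stretches are shared with other genes, Gm13502 foremost. Fdps, farnesyl diphosphate synthase, was at 2.88, 2.25 and 0.604 CPM and at 0.515, 0.441 and 0.786 CPM, the lowest level of the 32 genes (mean FPKM 0.206). Its log2 fold change of −1.70 (SE 0.60, edgeR adjusted p = 0.837) was the most negative of the 32, but 26.2% of its 50-base stretches are shared with 8 other genes, and its count is uncertain. Ggps1, which draws farnesyl diphosphate into geranylgeranyl diphosphate for protein prenylation and not into cholesterol, was at 6.44, 6.25 and 7.21 CPM and at 7.69, 7.94 and 7.35 CPM. All 3 FOXA2H-KO+CCl4 libraries of Ggps1 were above the controls, by 0.21 on the log2 scale (SE 0.17, edgeR adjusted p = 0.983).

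**Figure D2:**
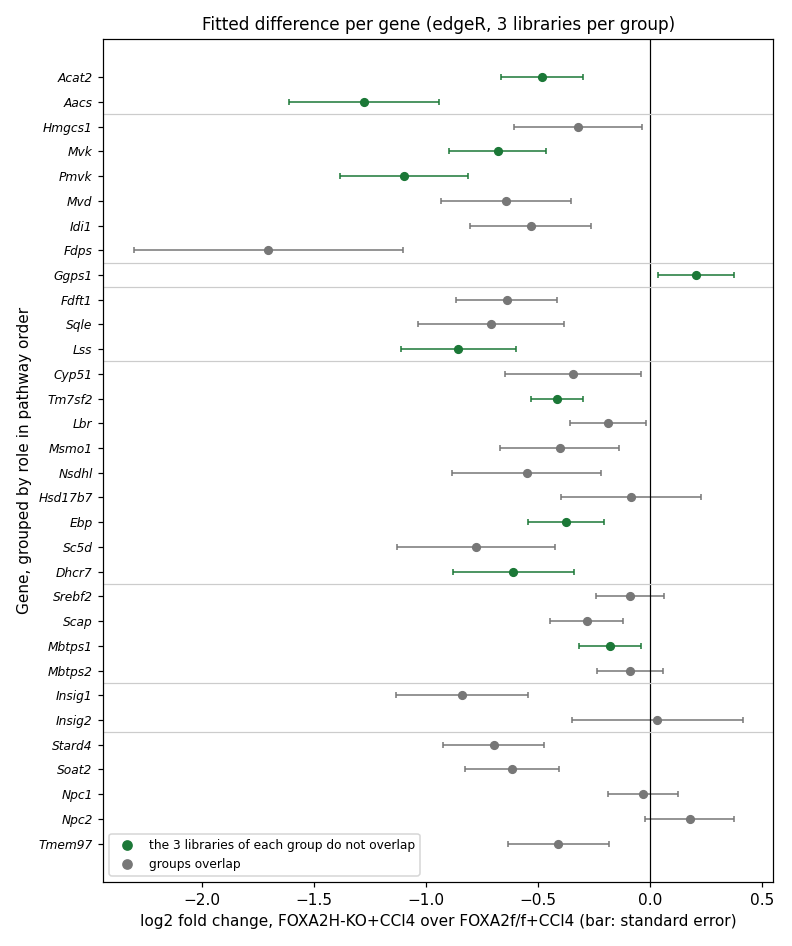
Fitted log2 fold change of FOXA2H-KO+CCl4 over FOXA2f/f+CCl4 (x axis) for the 32 genes (y axis, in pathway order), with bars of 1 standard error. Green marks the 10 genes whose groups of 3 libraries did not overlap, 9 of them lower and 1 (Ggps1) higher, and 29 of the 32 points lie left of 0.

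The enzymes from squalene to lanosterol were all at a log2 fold change at or below −0.5. Fdft1, squalene synthase and the first enzyme committed to sterols, was at 106, 101 and 80.4 CPM in FOXA2f/f+CCl4 and at 82.2, 46.3 and 55.6 CPM in FOXA2H-KO+CCl4. Its means were 95.8 ± 13.6 and 61.4 ± 18.7 CPM (log2 fold change −0.64, SE 0.23, edgeR adjusted p = 0.842), and FOXA2H-KO+CCl4 replicate 1 lay just above the lowest control. Of the exonic bases of Fdft1 18.3% overlap other genes, Ctsb foremost. Of its 50-base stretches 26.5% are shared with 2 other genes, so that its count is uncertain. Sqle, squalene epoxidase and a rate-limiting step of the pathway, was at 82.7, 96.2 and 47.4 CPM and at 58.4, 28.7 and 51.1 CPM (log2 fold change −0.71, SE 0.33, edgeR adjusted p = 0.941). Lss (ENSMUSG00000033105, chr10:76531588-76557138, plus strand), which closes the rings to lanosterol, was at 50.8, 76.0 and 43.7 CPM and at 40.4, 24.7 and 29.0 CPM. Lss was separated between the groups, at 55.2% of the control (log2 fold change −0.86, SE 0.26, edgeR adjusted p = 0.771).

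Between lanosterol and cholesterol, 9 enzymes had a median log2 fold change of −0.40, and 3 of them had groups that did not overlap (33.3%, against 5.96% of all tested genes). Tm7sf2 (ENSMUSG00000024799, chr19:6062821-6068373, minus strand), a sterol C14-reductase, was one of these, with 40.5, 42.5 and 44.9 CPM in FOXA2f/f+CCl4 and 31.8, 33.6 and 30.5 CPM in FOXA2H-KO+CCl4. Its mean was 74.9% of the control (42.7 ± 2.18 against 31.98 ± 1.59 CPM, log2 fold change −0.42, SE 0.11, edgeR adjusted p = 0.693). Of its exonic bases 12.1% overlap other genes, Vps51 foremost. Lbr, the C14-reductase of the nuclear envelope, overlapped between the groups, at a log2 difference of −0.19 (SE 0.17). Ebp, the sterol isomerase, was at 130.4, 168 and 115 CPM and at 112, 97.1 and 109.6 CPM (log2 fold change −0.37, SE 0.17, edgeR adjusted p = 0.941). Dhcr7, the last reductase of the route through 7-dehydrocholesterol, was at 80.1, 156 and 85.4 CPM and at 77.9, 57.8 and 74.5 CPM (log2 fold change −0.61, SE 0.27, edgeR adjusted p = 0.941). For Ebp and Dhcr7 the gap between the groups was narrow, and control replicate 2 was the highest library.

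Sc5d, the C5-desaturase and by FPKM the highest of the 32 genes (mean FPKM 115), was at 407, 783 and 326 CPM in FOXA2f/f+CCl4 and at 385, 267 and 232 in FOXA2H-KO+CCl4. The groups overlapped, with control replicate 2 far above the other libraries (SD 244 CPM over the controls, log2 fold change −0.78, SE 0.35, edgeR adjusted p = 0.941). Nsdhl, of the C4-demethylation complex, was at 37.6, 73.6 and 37.8 CPM and at 40.5, 21.7 and 39.4 CPM, so that 2 FOXA2H-KO+CCl4 libraries lay above 2 of the controls (log2 fold change −0.55, SE 0.33). Msmo1, the C4-methyl oxidase of that complex, had a fitted log2 difference of −0.40 (SE 0.27). Hsd17b7, its ketoreductase, was at −0.09 (SE 0.31), and Cyp51, the lanosterol demethylase, at −0.34 (SE 0.30). The groups overlapped for these 3 genes.

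**Figure D3:**
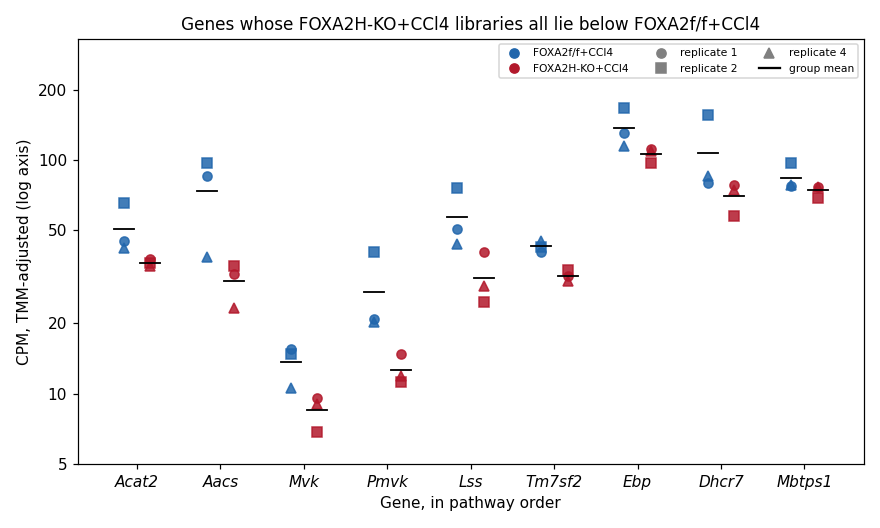
CPM (log axis) of the 9 genes whose FOXA2H-KO+CCl4 libraries all lay below the FOXA2f/f+CCl4 libraries. Each point is 1 library, marker shape gives the replicate number, and black lines are group means. The Mbtps1 groups nearly touched, at 77.0 CPM in both the lowest control and the highest FOXA2H-KO+CCl4 library.

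SREBP2 and the genes that activate it had a median log2 fold change of −0.14 over 4 genes (range −0.28 to −0.09), against −0.58 over the enzymes, and this difference was not tested. Srebf2 (ENSMUSG00000022463, chr15:82147181-82205379, plus strand), which encodes SREBP2, was at 52.5, 53.5 and 45.5 CPM in FOXA2f/f+CCl4 and at 45.9, 40.7 and 55.5 in FOXA2H-KO+CCl4. Its means of 50.5 ± 4.37 and 47.4 ± 7.53 CPM overlapped, and its highest value was in a FOXA2H-KO+CCl4 library (log2 fold change −0.09, SE 0.15, edgeR adjusted p = 0.987). Scaled by the library total alone, the log2 fold change of Srebf2 was 0.033. Scap, the escort, was at 55.6, 81.8 and 61.6 CPM and at 56.3, 52.1 and 55.0 CPM (log2 fold change −0.28, SE 0.16, edgeR adjusted p = 0.961). Mbtps1, the site-1 protease, was at 77.0, 96.8 and 77.8 CPM and at 76.3, 68.9 and 77.0 CPM (log2 fold change −0.18, SE 0.14). Mbtps2, the site-2 protease, was at 17.4, 16.4 and 14.9 CPM and at 16.7, 15.2 and 13.8 CPM (log2 fold change −0.09, SE 0.15). Of its exonic bases 28.4% overlap other genes, Yy2 foremost, and 28.9% of its 50-base stretches are shared with 368 other genes. The count of Mbtps2 is thus uncertain. The level of Srebf2 RNA does not measure how much SREBP2 was cleaved.

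The INSIG genes, which retain SREBP2, were placed differently. Insig1 (ENSMUSG00000045294, chr5:28071363-28078662, plus strand), itself a target of SREBP2, was at 249, 358 and 191 CPM in FOXA2f/f+CCl4 and at 203, 122 and 122 CPM in FOXA2H-KO+CCl4. It was at 55.9% of the control mean (266 ± 84.95 against 149 ± 47.1 CPM, log2 fold change −0.84, SE 0.29, edgeR adjusted p = 0.836), and FOXA2H-KO+CCl4 replicate 1 lay above the lowest control. Insig2, which is not known as a target of SREBP2, was at 88.3, 213 and 78.9 CPM and at 99.1, 150.0 and 139 CPM. Its mean was 102% of the control (127 ± 74.8 against 129 ± 26.8 CPM, log2 fold change 0.03, SE 0.38, edgeR adjusted p = 0.999), with the highest and the lowest library both among the controls. This value rested on single controls: without control replicate 2 Insig2 was at a log2 fold change of 0.63 (edgeR adjusted p = 0.606), and without control replicate 4 at −0.22. A test of Insig1 against Insig2 was not made.

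Among the genes of sterol handling, 2 of 5 had an unadjusted p under 0.05 and both were lower (40%, against 3.18% of all tested genes). Stard4, which carries cholesterol through the cytosol, was at 129, 132 and 73.4 CPM in FOXA2f/f+CCl4 and at 67.3, 65.0 and 73.7 in FOXA2H-KO+CCl4, so that the groups touched at the lowest control (log2 fold change −0.70, SE 0.23, edgeR adjusted p = 0.812). Soat2, which esterifies cholesterol in hepatocytes, was at 62.9, 68.8 and 42.1 CPM and at 42.3, 39.4 and 31.5 CPM, touching in the same way (log2 fold change −0.62, SE 0.21, edgeR adjusted p = 0.836). Tmem97, which binds NPC1 and is a sterol-responsive gene, had means of 92.4 ± 29.3 and 69.5 ± 5.88 CPM (log2 fold change −0.41, SE 0.22), and shares 20.8% of its 50-base stretches with 1 other gene, Gm5809. Npc1 and Npc2, the membrane and the soluble protein that move cholesterol out of lysosomes, had log2 fold changes of −0.03 (SE 0.16) and 0.17 (SE 0.20), with overlapping groups.

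The 6 libraries were not evenly placed within their groups. Over the 20 enzymes, the median of log2 CPM minus the mean of the 6 libraries was 0.30, 0.63 and −0.11 in FOXA2f/f+CCl4 replicates 1, 2 and 4, and −0.04, −0.67 and −0.20 in FOXA2H-KO+CCl4 replicates 1, 2 and 4. Control replicate 2 was the highest library for 13 of the 20 enzymes and FOXA2H-KO+CCl4 replicate 2 the lowest for 15. Over all 14417 tested genes, control replicate 2 was the highest library for 4275 and the lowest for 4206. FOXA2H-KO+CCl4 replicate 2 was the lowest for 1377 of these tested genes. FOXA2H-KO+CCl4 replicate 1 was at or above the lowest control for 11 of the 20, and control replicate 4 was above every FOXA2H-KO+CCl4 library for 8. Replicate 4 of the control and replicate 1 of FOXA2H-KO+CCl4 were alike in their median.

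Without control replicate 2 the median log2 fold change was −0.25 over the 32 genes and −0.34 over the 20 enzymes, with 7 genes lower, against 3.22% of all tested genes, and 1 higher (Insig2) at an unadjusted p under 0.05. Without FOXA2H-KO+CCl4 replicate 2 the medians were −0.36 and −0.46, with 5 genes lower, against 2.47%. Without control replicate 4 they were −0.61 and −0.74, with 19 genes lower, against 7.78% of all tested genes. None of the 32 was called by edgeR with any of the 6 libraries left out.

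**Figure D4:**
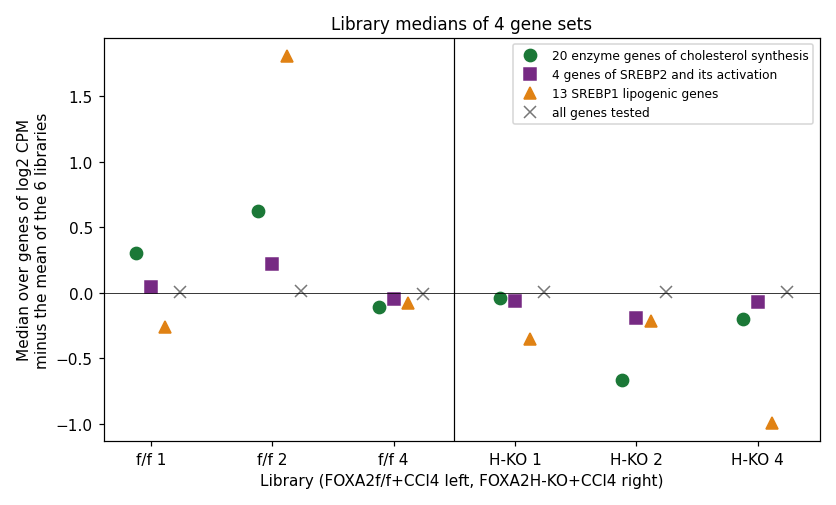
Median over genes of log2 CPM minus the mean of the 6 libraries (y axis) in each library (x axis), for the 20 enzymes, the 4 genes of SREBP2 and its activation, 13 lipogenic genes of SREBP1, and all tested genes. The enzymes span 0.63 to −0.67 between replicates 2 of the groups, SREBP2 and its activation 0.22 to −0.19, and the lipogenic genes reach 1.804 in control replicate 2.

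Neighbouring pathways were read from 6 further lists, and edgeR called none of their genes, nor did DESeq2 among those it tested. The 2 genes named per list are those with the smallest unadjusted p. Of 14 genes of LXR and cholesterol removal, 10 were below 0 and 4 above, with a median of −0.06. At an unadjusted p under 0.05, 3 were lower (21.4%, against 3.18% of all tested genes). The pair Abcg5 and Abcg8, which together form the canalicular exporter of cholesterol into bile, had groups that did not overlap. They were the 2 of the 14 genes separated downwards (14.3%, against 5.96% of all tested genes). Abcg5 was at 114, 198 and 115 CPM in FOXA2f/f+CCl4 and at 56.2, 92.2 and 64.5 in FOXA2H-KO+CCl4 (log2 fold change −1.01, SE 0.28, edgeR adjusted p = 0.689). Abcg8 was at 82.3, 133 and 113 CPM and at 66.7, 70.3 and 67.9 CPM (log2 fold change −0.68, SE 0.18, edgeR adjusted p = 0.671). The third gene of this list with an unadjusted p under 0.05 was Cyp8b1, named after its values were seen, which makes the 12-hydroxylated bile acids. Cyp8b1 was at 4.34, 71.4 and 2.48 CPM and at 4.38, 1.60 and 3.42 CPM, so that its difference lay in control replicate 2. Without that library edgeR called 1 gene of the list, Cyp7b1, another enzyme of bile acid synthesis, which was higher (log2 fold change 2.16, edgeR adjusted p = 0.0419). In that fit 6 of 14821 tested genes were called, 3 of them higher. Cyp7b1 was at 7.95, 43.7 and 11.03 CPM and at 39.5, 40.2 and 48.1 CPM, so that the control left out lay among the FOXA2H-KO+CCl4 libraries. With all libraries its groups overlapped and it was not called (log2 fold change 1.04, SE 0.58, edgeR adjusted p = 0.957).

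Of 10 genes of sterol-regulated degradation in the endoplasmic reticulum and of SREBP turnover, 6 were below 0 and 4 above (median −0.17). At an unadjusted p under 0.05, 1 was lower (10%, against 3.18% of all tested genes). Without control replicate 2 the median was 0.03 and 7 were above 0. The gene with the unadjusted p under 0.05 was Syvn1, a ubiquitin ligase of that membrane, which was at 59.2, 83.6 and 83.5 CPM in FOXA2f/f+CCl4 and at 53.2, 56.7 and 40.4 in FOXA2H-KO+CCl4, without overlap (log2 fold change −0.59, SE 0.19, edgeR adjusted p = 0.811). Rnf145, a sterol-responsive ubiquitin ligase, was at 49.1, 56.2 and 48.9 CPM and at 36.1, 47.7 and 26.7 CPM, also without overlap (log2 fold change −0.48, SE 0.21). Syvn1 and Rnf145 were the 2 of 10 genes separated downwards (20%, against 5.96% of all tested genes). In the branches that build prenyl chains, 10 of 12 genes were below 0 (median −0.06), and none had an unadjusted p under 0.05. That p was smallest for Rabggta (log2 fold change −0.21) and Pdss2 (−0.29). Rabggta and Coq2 (named after its values were seen) were the 2 of 12 separated downwards (16.7%, against 5.96% of all tested genes). The 4 electron donors of the sterol oxidases were all below 0 by small amounts (median −0.06, 0 at an unadjusted p under 0.05), with Cyb5b at −0.10 and Cyb5r3 at −0.06, and had a median of 0.10 without control replicate 2. Of 10 tested genes of intracellular sterol transport and sterol esters, 6 were below 0 and 4 above (median −0.04). None had an unadjusted p under 0.05. Nceh1, a cholesteryl ester hydrolase, was at a log2 fold change of 0.42 (SE 0.19) and Osbp, a sterol carrier, at −0.33 (SE 0.17). Osbp was the 1 of 10 genes separated downwards (10%, against 5.96% of all tested genes). The median of this list was 0.01 without control replicate 2.

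The lipogenic genes of SREBP1, the related factor that drives fatty acid synthesis, had their highest values in control replicate 2. Of 13 genes, 12 were below 0 with a median log2 fold change of −1.27. At an unadjusted p under 0.05, 7 were lower (53.8%, against 3.18% of all tested genes), none of them called. Srebf1 was at 302, 591 and 242 CPM in FOXA2f/f+CCl4 and at 161, 208 and 104 CPM in FOXA2H-KO+CCl4, without overlap (log2 fold change −1.26, SE 0.38, edgeR adjusted p = 0.771). Pnpla3, a lipid hydrolase of lipid droplets, was at 3.05, 23.8 and 3.91 CPM and at 2.501, 1.00 and 0.555 CPM (log2 fold change −2.88, SE 0.91). Srebf1 and Pnpla3 were the 2 of 13 genes separated downwards (15.4%, against 5.96% of all tested genes). Control replicate 2 was the highest library for 13 of the 13, against 4275 of all 14417 tested genes, with a median 1.804 above the mean of the libraries. The lowest library was FOXA2H-KO+CCl4 replicate 4 for 9 of 13, against 1880 of all tested genes, and not replicate 2. Without control replicate 2 the median of the list was −0.28, with 10 of 13 below 0, so that most of the difference lay in that library. In that fit 2 were lower at an unadjusted p under 0.05, against 3.22% of all tested genes. Fasn, fatty acid synthase, named after its values were seen, was at 448, 3706 and 417 CPM and at 373, 457 and 147 CPM.

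Markers of liver cell types also differed between the libraries. Hepatocyte markers (6 genes, among them Alb and Ttr) summed to 131959, 146581 and 104816 CPM in FOXA2f/f+CCl4 and to 100671, 123091 and 130346 CPM in FOXA2H-KO+CCl4, with 1 of 6 above 0 in log2 fold change. Alb made up most of each sum, at 113057, 124578 and 89394 CPM and at 83490, 105803 and 111051 CPM. The gene above 0 was Cyp2e1, named after its values were seen, at 1267, 291 and 1023 CPM and at 1685, 1415 and 1159 CPM (log2 fold change 0.72, SE 0.48). It was lowest in control replicate 2. Control replicate 2, with the highest enzyme median, had the highest hepatocyte sum and the lowest sum of all 6 libraries for each of the other lists. Control replicate 4, with the lowest enzyme median of the controls, had the lowest hepatocyte sum of the controls and the highest sum of the 6 libraries for endothelial, macrophage, stellate and lymphocyte markers. The FOXA2H-KO+CCl4 libraries were ordered otherwise. Replicate 1, with the highest enzyme median of that group, had the lowest hepatocyte sum of the 6 libraries. Replicate 2, with the lowest enzyme median of all, had the middle hepatocyte sum of its group. A relation between these sums and the enzymes was not tested.

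Macrophage markers summed to 546, 301 and 1196 CPM and to 987, 849 and 633 CPM, with 6 of 6 genes above 0 in log2 fold change. Stellate cell markers summed to 799, 674 and 1846 CPM and to 1827, 1103 and 1145 CPM, with 7 of 7 above 0. Endothelial markers summed to 257, 143 and 523 CPM and to 244, 318 and 303 CPM, with 1 of 6 above 0. None of these 3 lists had a gene at an unadjusted p under 0.05 or without overlap between the groups. Cholangiocyte markers summed to 367, 174 and 231 CPM and to 707, 252 and 588 CPM, with 5 of 5 above 0. Spp1 made up most of each sum, at 353, 164 and 222 CPM and at 687, 241 and 573 CPM. Krt19 and Krt7, keratins of bile duct cells, were the 2 of 5 genes separated upwards, against 4.54% of all tested genes. Both were low, from 0.548 to 3.38 CPM. For Epcam, Sox9 and Spp1 of the same list the groups overlapped. Krt7 and Spp1 were higher at an unadjusted p under 0.05 (2 of 5, against 1.98% of all tested genes), and neither was called. Lymphocyte markers summed to 39.6, 18.6 and 80.2 CPM and to 71.5, 57.3 and 41.3 CPM, with 3 of 4 tested genes above 0 and Cd3e near 0. Neutrophil markers summed to 61.0, 3.34 and 31.1 CPM and to 5.48, 10.9 and 5.23 CPM, with 3 of 3 tested genes below 0 and Ly6g near 0. Each of the 3 had an unadjusted p under 0.05, against 3.18% of all tested genes lower at that p. The groups overlapped in the sum of every list. In bulk RNA, fewer hepatocytes and less RNA of a gene per hepatocyte cannot be told apart, and the part of other cells in the differences of the 32 genes was not tested.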

How the data were processed

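Poly-A RNA of primary hepatocytes, isolated by collagenase perfusion, was made into paired-end TruSeq libraries. The submitters' processing notes name CASAVA 1.8, TopHat2 2.1.0, HTSeq, edgeR and mm10. The annotation release is not given in the sources used here. For each library the authors deposited whole-number counts per gene, without normalization, and FPKM values, which are per length and library total. A table holding these columns side by side was not used. No pair of replicates was near-identical (chi-square of counts 35.9 to 123 times its degrees of freedom). Nothing in the labels says how the animals relate to the libraries, so that p-values measure the spread between these libraries.

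The quasi-likelihood test of edgeR 4.0.16 (R 4.3.3) was run on the counts after TMM scaling (factors 0.870 to 1.12) and filterByExpr (14417 genes kept), without a block, adjusted by Benjamini-Hochberg over all tested genes. A gene was called at an adjusted p under 0.05 and a fold of at least 2, and the standard error is the size of the log2 fold change divided by the square root of F. The biological coefficient of variation was 25.3%. Tests were checked on simulated data. Alternatives were DESeq2 1.42.0, upper quartile scaling, library size alone, edgeR's exact and robust tests, other filters, limma 3.58.1 on log2(FPKM + 1) where the mean FPKM was at least 1, a replicate block, each library left out, no fold threshold and unadjusted p-values.

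Overlaps of exons and shared 50-base stretches come from GENCODE M21 on GRCm38. The members, the other lists and the rule for named genes (all members, and the 2 genes of smallest p in each other list) were chosen with earlier results of these data known. Some genes of this pathway are not reported here.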

Additional observations from a re-analysis of the deposited data

How the results depend on the processing

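The median log2 fold change stayed below 0 under every alternative, from −0.61 to −0.25 over the 32 genes and from −0.74 to −0.34 over the 20 enzymes. Members called numbered 0 with edgeR and limma, 1 (Aacs, log2 fold change −1.28) with DESeq2 and with DESeq2 without a fold threshold, and 3 by unadjusted p with a fold of at least 2. All genes called numbered 1, and 75 with DESeq2, 90 with DESeq2 without a fold threshold, 64 with edgeR's exact test, 2 with no filter, 254 by unadjusted p, and 0 with library size alone, with limma on FPKM and with the replicate block. Leaving out 1 library gave 0 to 6. Members at an unadjusted p under 0.05, a count chosen after seeing the data, numbered 11 (3.18% of all tested genes were lower at that p), 15 with DESeq2 (2.52%), 14 with the exact test (3.17%), 16 with no filter (2.92%), 12 with upper quartile scaling (3.16%), 7 with library size alone (1.67%) and with limma (1.91%), 10 with the block (2.75%), and 5 to 19 with 1 library left out (1.63% to 7.78%). The cause of these shifts was not tested. Under library size alone and limma on FPKM, which set the median of all genes at 0.10 and 0.08, the log2 fold change turned to 0.070 and 0.041 for Hsd17b7, 0.033 and 0.022 for Srebf2, 0.040 and 0.018 for Mbtps2, and 0.099 and 0.074 for Npc1. With 1 library left out the sign turned in some fits for Hsd17b7 (range −0.34 to 0.13), Srebf2 (−0.21 to 0.0069), Insig2 (−0.22 to 0.63) and Npc1 (−0.17 to 0.077). Same-numbered libraries did not deviate together (correlations −0.07, 0.03 and −0.23), so the numbers were not taken as pairs, and the block changed no call among the 32. With 3 libraries a group and adjusted p-values, edgeR and limma called none of the 32 genes, and DESeq2 called Aacs alone.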
